A study of Mus musculus with 6 samples.

Results

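The collagen chain genes of primary mouse embryonic fibroblasts were described in lines labelled as wild type or knockout for the histone acetyltransferase HAT1. Members were the genes whose symbol reads Col, a number, the letter a and a number, which gave 44 of the 17512 genes with counts. By the structure of their product, 11 coded for chains of fibrillar collagens, 9 for network collagens, 9 for FACIT collagens (which sit on the surface of fibrils), 6 for beaded-filament collagens and 4 for transmembrane collagens. The other 5 (Col7a1, Col15a1, Col18a1, Col26a1 and Col28a1) belonged to none of these 5 classes.

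RNA was sequenced from 6 cell lines on a C57bl6 strain background, each grown from embryos and used as primary culture. Lines 36, 47 and 78 were HAT1 WT and lines 33, 41 and 72 were HAT1 KO (n = 3 lines each). All 6 were kept in the same serum-containing medium and received no other treatment according to the labels. The labels called the cells primary mouse embryonic fibroblasts, a culture made by dispersing whole embryos after removal of the internal organs, so other mesenchymal cells and blood-derived cells can be carried along. Whether any of the lines came from littermates was not stated.

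Collagens are built from 3 polypeptide chains wound into a triple helix, which may be identical or the products of different genes. The fibrillar chains are made as procollagens, hydroxylated and folded in the endoplasmic reticulum, trimmed outside the cell and crosslinked into fibrils. Type IV chains form the sheet-like network of basement membranes, type VI chains form beaded microfibrils around cells, and transmembrane collagens stay anchored in the cell surface. Fibroblasts are the main source of types I, III, V and VI in connective tissue, whereas types II, IX, X and XI are known from cartilage.

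The libraries held between 67720628 and 98786746 counts. The targeted gene Hat1 lay at 17.4, 23.0 and 20.1 CPM (read counts relative to library size, with TMM scaling between libraries) in WT lines 36, 47 and 78 and at 10.2, 10.0 and 10.3 CPM in KO lines 33, 41 and 72, so Hat1 RNA in the KO lines remained at 0.504 of the WT mean. A count over the whole gene does not show whether this RNA can still code for the protein. KO line 72 stood apart from the rest, with a mean Pearson correlation of 0.973 to the other 5 lines, against 0.984 to 0.988 for the others. The summed level of 4 Y-linked genes was 183 and 160 CPM in WT lines 36 and 47. It was at most 2.33 CPM in the other 4 lines. The X-linked gene Xist stood at 1.25, 14.6 and 298 CPM in WT lines 36, 47 and 78. In KO lines 33, 41 and 72 it stood at 154, 191 and 146 CPM. Only WT line 78 thus matched the KO lines in this respect. Sex as read from these RNAs was partly confounded with genotype, and its effect was not tested. The labels placed WT line 36 on sequencing lane 8. They placed WT line 47 and KO lines 33 and 72 on lane 6, and WT line 78 and KO line 41 on lane 7. A difference within lane 6 below thus has WT line 47 as its only WT line. Differences within lane 7 and against WT line 78 share WT line 78 as their only WT line and are not separate checks.

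The cell type in the labels was compared with marker lists. All 10 listed fibroblast markers were detected, with summed levels of 12877 to 19462 CPM in WT lines and 16221 to 17504 CPM in KO lines. Fn1 made up most of this sum. Of the 10, 6 were lower and 4 higher in KO, with a median log2 fold change of -0.08. Thy1 (-0.31, adjusted p = 0.305) alone had an unadjusted p under 0.05 by edgeR. Every KO line lay below every WT line for Thy1, as for 12.4% of all tested genes. Every KO line lay above for S100a4 (0.82), as for 9.59%. Macrophage markers were present as well, at 4855 to 5257 CPM summed over 10 genes in WT lines and 2360 to 2892 CPM in KO lines. All 10 were lower in KO, 8 of them with an adjusted p under 0.05 (edgeR quasi-likelihood test), which 0.528% of all tested genes reached. The 6 smooth muscle markers summed to 4313 to 5279 CPM in WT lines and to 5659 to 6945 CPM in KO lines. Of these, 5 were higher in KO and 1, Des, was lower (log2 fold change -0.35). The 4 with an unadjusted p under 0.05 by edgeR were all higher, against 5.88% of all tested genes. The endothelial list summed to 12.9 to 14.3 CPM in WT lines and 9.93 to 15.2 CPM in KO lines, most of it from Kdr. Of its 6 tested genes, 3 were lower and 3 higher in KO, with a median log2 fold change of -0.05. Pecam1 (log2 fold change -1.63, adjusted p = 0.176) and Cdh5 (-0.85, adjusted p = 0.260) had an unadjusted p under 0.05 by edgeR. At that threshold 8.77% of all tested genes were lower. Pecam1 and Cdh5 had every KO line below every WT line, as did 12.4% of all tested genes, and stayed below 0.75 CPM throughout. The 3 higher genes were Erg (0.68), Tek (0.08) and Esam (0.06). The epithelial list summed to 1.84 to 2.49 CPM in WT lines and 1.09 to 2.13 CPM in KO lines, with Epcam close to 0. Its 2 tested genes went opposite ways. Krt18 stood at 0.809 to 1.33 CPM in WT and at 0 to 0.404 CPM in KO. Cdh1 stood at 0.371 to 0.910 CPM in WT and at 0.621 to 2.05 CPM in KO. In bulk RNA a smaller number of cells of a type and less RNA in each cell cannot be told apart. The part that the fibroblast, macrophage, smooth muscle, endothelial and epithelial differences play in any collagen value below was not tested.

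Collagens made up a large share of the RNA. The 44 genes took 8.30%, 8.28% and 9.85% of all counts in WT lines 36, 47 and 78, and 10.0%, 8.73% and 6.74% in KO lines 33, 41 and 72. The KO lines held both the highest and the lowest share. Fibrillar chains accounted for 72.8% to 82.0% of the collagen counts of a line, and Col1a1, the major chain of type I collagen, for 36.4% to 43.8%.

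Levels of different genes were compared as CPM per kb of transcript, with the length of the longest principal transcript. By the mean over the 6 lines, 11 members lay above 100 CPM per kb, 8 between 10 and 100, 8 between 1 and 10, 6 between 0.1 and 1, and 11 below 0.1. The 11 most abundant were Col1a1, Col1a2, Col3a1, Col5a1, Col6a1, Col12a1, Col5a2, Col6a2, Col6a3, Col4a1 and Col4a2, that is the chains of types I, III, V, VI and XII and the ubiquitous pair of type IV. Each of these 11 stood at or above the percentile 98.97 of all genes in the table. At the other end, all 3 type IX chains, the kidney and inner ear chains Col4a3 and Col4a4, and Col6a4, Col6a5 and Col6a6 lay below 0.31 CPM per kb in every line.

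**Figure D1:**
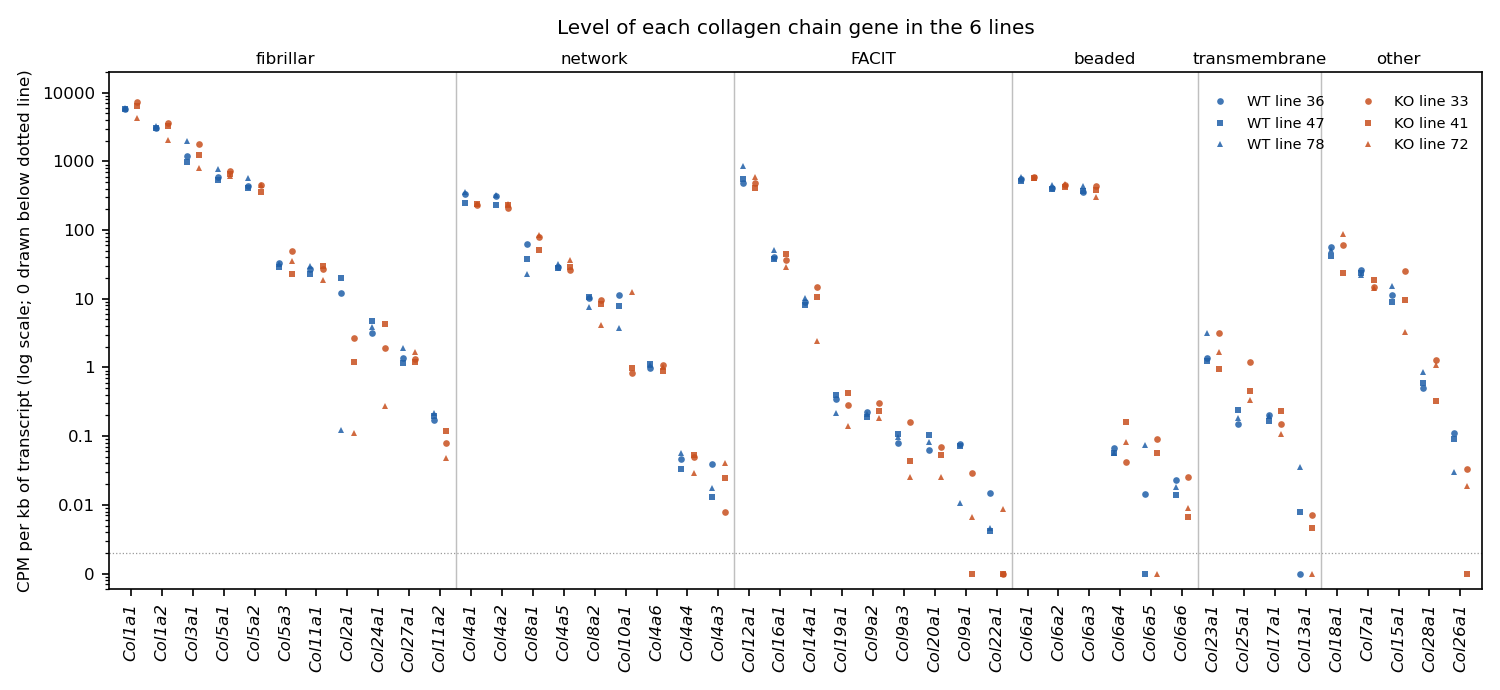
Level of the 44 collagen chain genes in CPM per kb of transcript (log scale, 0 drawn under the dotted line), 1 point per line, WT in blue and KO in orange, ordered by class and mean level. The genes span from 5948 CPM per kb for Col1a1 to 0.00545 for Col22a1, and the points of both genotypes lie close together for the abundant members.

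The 3 leading fibrillar chains code for types I and III collagen, the main tensile fibrils of connective tissue. Col1a1 stood at 33898, 34753 and 35759.9 CPM in WT lines 36, 47 and 78 and at 43872, 38321 and 25022 CPM in KO lines 33, 41 and 72. Col1a2, the partner chain of type I, stood at 16600.2, 16191 and 17261 CPM in WT and at 19336, 17798 and 10797 CPM in KO. For both genes the WT lines were close to each other, KO lines 33 and 41 lay above all of them, and KO line 72 lay below. The log2 fold changes (KO over WT) were accordingly small against their errors, 0.04 with an SE of 0.23 for Col1a1 and -0.06 with an SE of 0.23 for Col1a2. Col3a1, the type III chain, varied more between WT lines, with 6723, 5469 and 10858 CPM against 9975, 6790.3 and 4494 CPM in KO (log2 fold change -0.12, SE 0.37). The chains of type V, which start and thin the type I fibrils, gave 0.06 for Col5a1 and -0.18 for Col5a2.

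Col6a1 and Col6a2 of type VI collagen had the smallest fold range over the lines of all tested members. Col6a1 stood at 2261, 2134 and 2399.8 CPM in WT lines and at 2392, 2355 and 2339 CPM in KO lines, a range of 1.125-fold over all 6 lines. Col6a2 stood at 1644, 1548 and 1811 CPM in WT and at 1795, 1671 and 1866 CPM in KO. Col6a3, the largest chain of the type VI trimer, stood at 3200.0, 3295 and 3910.0 CPM in WT and at 4006, 3409 and 2729.8 CPM in KO. The genotypes overlapped for all 3 genes, with log2 fold changes of 0.06, 0.09 and -0.04 and SEs of 0.08, 0.10 and 0.17.

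Among FACIT collagens, Col12a1 was by far the most abundant, at 5537, 6336 and 9782 CPM in WT lines and 5625, 4691 and 6707 CPM in KO lines. Col16a1 stood at 212, 200.0 and 269 CPM in WT and at 191, 229.7 and 151 CPM in KO. Col14a1, which binds the surface of type I fibrils, stood at 51.5, 46.2 and 57.7 CPM in WT and at 84.0, 59.8 and 13.6 CPM in KO. None of the 3 separated the genotypes, and for Col14a1 the KO lines spanned the whole range (log2 fold changes -0.35, -0.25 and 0.02, SEs 0.25, 0.18 and 0.58). With all 7 tested members, FACIT had the lowest median log2 fold change of the classes, -0.25, with an unadjusted p under 0.05 for 0 of them by edgeR.

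The question of the design was which transcripts differ between HAT1 KO and HAT1 WT. Of the 44 genes, 40 had enough counts to be tested with edgeR, over 14773 genes in all. None of the 40 passed an adjusted p of 0.05 (Benjamini-Hochberg over all tested genes, smallest 0.134 for Col7a1), where 0.528% of all tested genes did. At an unadjusted p under 0.05, 3 members were lower in KO, 7.5% of the 40 against 8.77% of all tested genes, and 1 was higher, 2.5% against 5.88%. With a change of at least 1.5-fold as well, the thresholds the study used, 2 were lower (Col7a1 and Col11a2), 5.0% against 4.62%, and 1 was higher (Col25a1), 2.5% against 1.5%. Every KO line lay below every WT line for 3 tested members, 7.5% against 12.4% of all genes, and above for 1, 2.5% against 9.59%. The shares among collagens were thus near or below those of all genes under each of these rules.

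The same comparison with other tools gave 2 calls in DESeq2 at an adjusted p under 0.05 (Col7a1 lower, Col25a1 higher), where 5.9% of all genes were called, and 0 in voom with sample quality weights, where 1.81% were. Of the 40 members, 23 had a negative and 17 a positive log2 fold change, with a median of -0.06 beside 0.0085 over all genes. The negative share was 57.5%, against 48.5% of all tested genes. Without KO line 72, the library that stood apart, the median was 0.05 and the same thresholds of 1.5-fold and unadjusted p gave 2 lower (Col10a1 and Col11a2) and 1 higher member (Col25a1). By class the medians were -0.08 for fibrillar, -0.08 for network, 0.08 for beaded, 0.02 for transmembrane and 0.16 for the unclassed members.

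**Figure D2:**
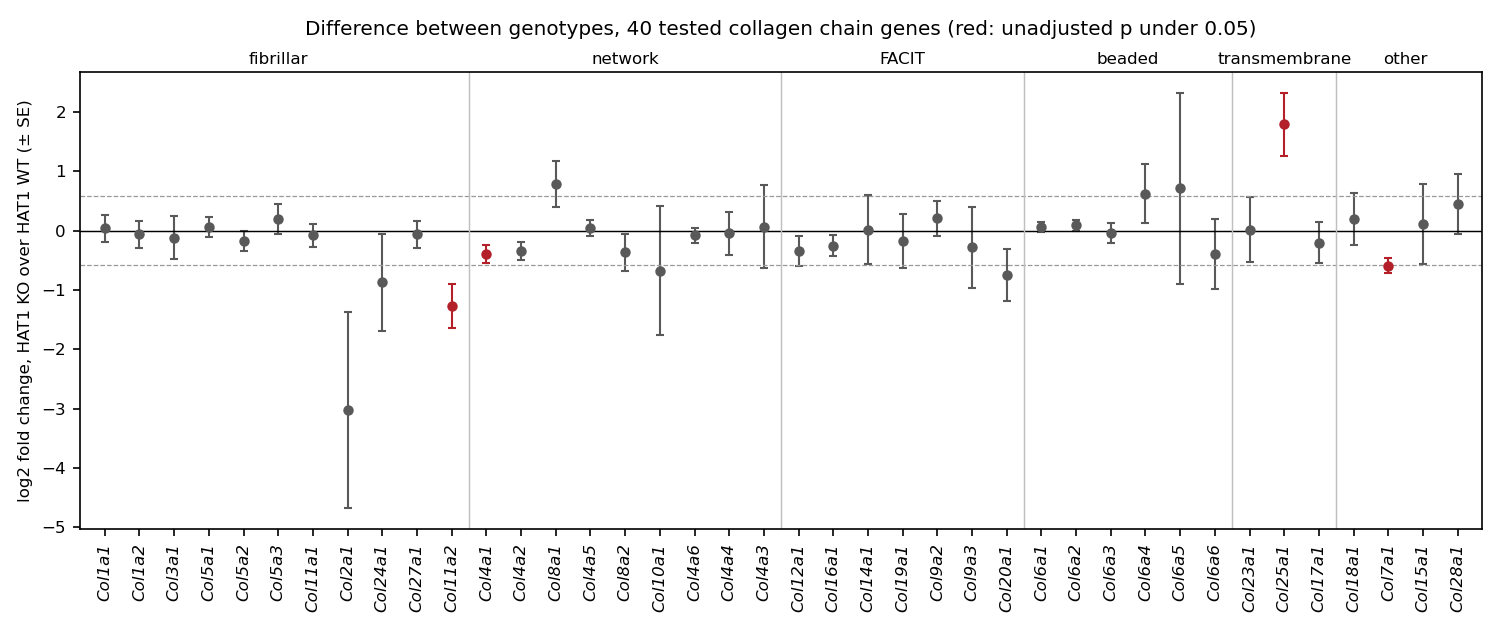
Log2 fold change of KO over WT with its standard error for the 40 tested collagen chain genes, by class (edgeR, 3 lines each), with dashed lines at 1.5-fold and red marks for an unadjusted p under 0.05. Only Col11a2, Col4a1, Col25a1 and Col7a1 are marked, and Col2a1 has the lowest estimate, -3.02, with an error of 1.65.

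The 3 members past both thresholds are shown with the 250 bases before their RefSeq start (GRCm38.p6), to give the sequence next to that start. Capitals mark the motifs searched on both strands, namely the CCAAT box, the TATAAA box and the GC box with the letters GGGCGG, none of which overlap one another in these windows.
Col7a1, chr9:108953336-108953585, plus strand: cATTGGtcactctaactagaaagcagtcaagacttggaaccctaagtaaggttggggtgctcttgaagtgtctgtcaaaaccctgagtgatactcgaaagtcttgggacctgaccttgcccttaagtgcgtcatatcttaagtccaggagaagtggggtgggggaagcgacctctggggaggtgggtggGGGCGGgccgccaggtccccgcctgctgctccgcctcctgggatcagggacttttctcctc
Col11a2, chr17:34038888-34039137, plus strand: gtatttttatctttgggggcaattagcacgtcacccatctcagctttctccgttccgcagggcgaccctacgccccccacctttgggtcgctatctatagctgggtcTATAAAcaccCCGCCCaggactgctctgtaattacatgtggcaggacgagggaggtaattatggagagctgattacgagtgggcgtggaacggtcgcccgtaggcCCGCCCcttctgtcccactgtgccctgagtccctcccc
Col25a1, chr3:130180595-130180844, plus strand: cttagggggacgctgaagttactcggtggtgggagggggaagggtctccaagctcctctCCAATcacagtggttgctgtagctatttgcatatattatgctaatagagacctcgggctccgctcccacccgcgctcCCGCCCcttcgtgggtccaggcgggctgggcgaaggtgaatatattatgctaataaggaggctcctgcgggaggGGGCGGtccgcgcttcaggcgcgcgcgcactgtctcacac
The Col7a1 window held a CCAAT motif on the opposite strand, starting 249 bases before the gene, and GGGCGG 61 bases before it. The Col11a2 window held TATAAA 143 bases before the RefSeq start, which differs from the gene start of the GENCODE annotation at position 34039437, and GGGCGG at 2 places on the opposite strand. In the Col25a1 window CCAAT began 191 bases before the start and GGGCGG occurred on each strand, at 40 and 114 bases. This RefSeq start lies inside the gene as GENCODE annotates it.

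Over the 38 windows of the 35 members with an entry, CCAAT was found in 13, or 34.2%, against 33.8% of all 32851 windows in the table. TATAAA was found in 5 windows, or 13.2% against 12.4%, and GGGCGG in 22, or 57.9% against 32.7%. These are matches of letters in the window and were not tested. Col1a1, Col2a1, Col4a3, Col5a2, Col9a3, Col12a1, Col14a1, Col22a1 and Col26a1 had no entry.

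Col7a1 (ENSMUSG00000025650) codes for type VII collagen, the anchoring fibril that ties the epidermal basement membrane to the dermis, and lies on chromosome 9 at 108953586 to 108984875 (GRCm38, plus strand). It was measured at 246, 219 and 206 CPM in WT lines 36, 47 and 78 and at 139, 175 and 131 CPM in KO lines 33, 41 and 72. The KO values were each under the lowest WT value, and KO line 41 came closest to it. The means were 223 ± 20.5 CPM in WT and 148 ± 23.2 CPM in KO (SD, n = 3), a log2 fold change of -0.59 with an SE of 0.13 (unadjusted p = 0.00357, adjusted p = 0.134 by edgeR). Within lane 6 the difference was -0.69 and within lane 7 it was -0.23, and against WT line 78 alone it was -0.47. The unadjusted p stayed under 0.05 in all 13 alternative fits, but the change fell short of 1.5-fold in 8 of them, among them voom (-0.56), lane in the model (-0.50), and the fits without WT line 36 (-0.51), KO line 33 (-0.54) or KO line 72 (-0.50). An annotated microRNA, Mir711, shares 36 bases of exon with Col7a1 on the same strand.

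Col11a2 (ENSMUSG00000024330), a chain of the type XI collagen of cartilage fibrils, lies on chromosome 17 at 34039437 to 34066685. It was expressed at a low level, with 71, 85 and 117 counts in WT lines 36, 47 and 78 and 38, 43 and 20 counts in KO lines 33, 41 and 72. These equalled 0.941, 1.06 and 1.18 CPM in WT and 0.427, 0.636 and 0.259 CPM in KO. The groups did not overlap, at 1.06 ± 0.121 against 0.441 ± 0.189 CPM (SD, n = 3). The log2 fold change was -1.27 with an SE of 0.37 (unadjusted p = 0.0136, adjusted p = 0.219), with -1.62 in lane 6, -0.89 in lane 7 and -1.42 against WT line 78. Col11a1, another chain of type XI collagen, stood at 194 to 204 CPM in the genotype means with a log2 fold change of -0.08 (SE 0.20).

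Col25a1 (ENSMUSG00000058897) codes for a transmembrane collagen known from neurons and from the innervation of muscle, and lies on chromosome 3 at 130131501 to 130599877. It had 30, 50 and 47 counts in WT lines and 277, 80 and 68 counts in KO lines 33, 41 and 72, which is 0.398, 0.621 and 0.475 CPM against 3.11, 1.18 and 0.881 CPM. Every KO line was above every WT line, with KO line 33 far above the other KO lines. The log2 fold change was 1.79 with an SE of 0.53 (unadjusted p = 0.0142, adjusted p = 0.222), and without KO line 33 it was 1.05 (unadjusted p = 0.0246 by edgeR). The call was lost with lane in the model (1.52, unadjusted p = 0.0918) and without WT line 36 (1.66, unadjusted p = 0.0505). Within lane 6 it was 1.68, within lane 7 it was 1.32, and against WT line 78 it was 1.86. The 6 neural crest glia markers summed to 1.64, 6.30 and 9.57 CPM in WT lines 36, 47 and 78. In KO lines 33, 41 and 72 they summed to 29.3, 1.30 and 0.687 CPM. KO line 33 was thus highest for both, while KO lines 41 and 72 were the lowest for these markers but not for Col25a1. Whether the marker levels bear on Col25a1 was not tested.

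The other transmembrane chains showed no such separation. Col23a1 stood at 7.86, 6.92 and 17.7 CPM in WT and at 18.2, 5.31 and 9.44 CPM in KO. Col17a1, the hemidesmosome collagen of the epidermis, stood at 1.11, 0.907 and 1.08 CPM in WT and at 0.831, 1.29 and 0.583 CPM in KO. Their log2 fold changes were 0.02 (SE 0.54) and -0.20 (SE 0.34).

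Col4a1 and Col4a2, the chains of the common basement membrane type IV trimer, lie head to head on chromosome 8 (Col4a1 at 11198423 to 11312826 on the minus strand, Col4a2 at 11312805 to 11449287 on the plus strand). The annotated first exons overlap by 22 bases, which are printed here because reads from them could be assigned to either gene when strand is not used.
Shared first bases, chr8:11312805-11312826, plus strand: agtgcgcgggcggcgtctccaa
Col4a1 stood at 2186, 1618 and 2394 CPM in WT lines 36, 47 and 78 and at 1549, 1608 and 1567 CPM in KO lines 33, 41 and 72. Col4a2 stood at 2036, 1475 and 2068 CPM in WT and at 1373, 1478 and 1559.5 CPM in KO. In both genes the KO lines were close together and WT lines 36 and 78 lay above them, whereas WT line 47 lay at the KO level, for Col4a1 just above the highest KO line and for Col4a2 within the KO range. The log2 fold change was -0.39 with an SE of 0.15 for Col4a1 (unadjusted p = 0.0409, adjusted p = 0.320) and -0.34 with an SE of 0.15 for Col4a2 (unadjusted p = 0.0614, adjusted p = 0.367). Within lane 6, which holds WT line 47, the differences were -0.05 and -0.01, while within lane 7 they were -0.57 and -0.48. Against WT line 78 alone they were -0.60 and -0.49. The Col4a1 p-value passed 0.05 only with WT line 47 left out (0.00359) among the fits that left out a line, and lay between 0.0715 and 0.123 for the others.

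**Figure D3:**
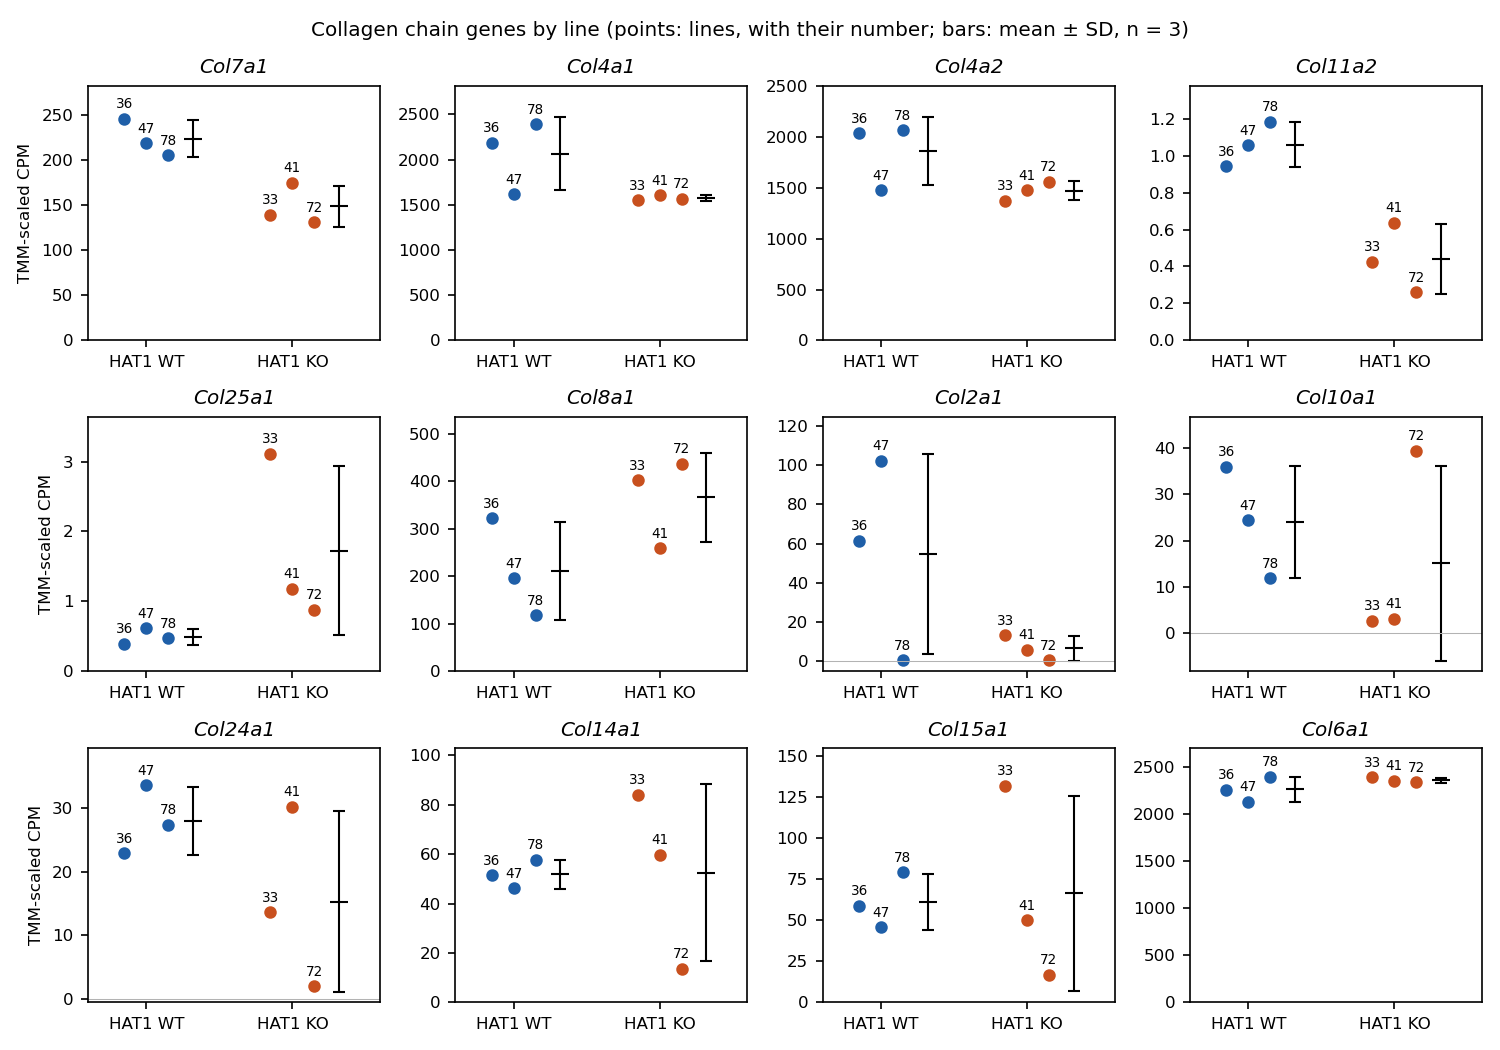
TMM-scaled CPM of 12 collagen chain genes in each line, with the line number at each point and the mean ± SD of 3 lines beside each genotype. WT line 47 sits at the KO level for Col4a1 and Col4a2, KO line 33 leads Col25a1 at 3.11 CPM, and Col6a1 stays between 2134 and 2399.8 CPM.

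The remaining type IV chains did not follow that pair. Col4a5 and Col4a6, which lie head to head on the X chromosome 1308 bases apart, gave log2 fold changes of 0.04 (SE 0.13) and -0.08 (SE 0.13). Col4a4 and Col4a3, head to head on chromosome 1 with 71 bases between them, were below 0.06 CPM per kb in every line, with -0.04 (SE 0.37) and 0.07 (SE 0.70).

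Col8a1, a short-chain network collagen of vessel walls and of the membrane behind the cornea, stood at 322, 196 and 118 CPM in WT lines 36, 47 and 78 and at 402, 259 and 437 CPM in KO lines 33, 41 and 72. WT line 36 overlapped the KO range, in that it exceeded KO line 41. The log2 fold change was 0.79 with an SE of 0.38 (unadjusted p = 0.0835, adjusted p = 0.413), with 1.10 within lane 6 and 1.14 within lane 7. Against WT line 78 alone it was 1.63. WT line 36 was alone on lane 8. A fit with lane as a term gave 1.11 (unadjusted p = 0.000325, adjusted p = 0.529 by edgeR), and leaving out WT line 36 gave 1.22 (unadjusted p = 0.0126).

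Col18a1 and Col15a1 code for the proteoglycan-like collagens of basement membrane zones, the first being the source of endostatin. Col18a1 stood at 272, 201 and 248 CPM in WT and at 292, 115 and 423 CPM in KO, so that KO lines lay on both sides of the WT range. Col15a1 stood at 58.9, 45.7 and 79.4 CPM in WT and at 132, 50.2 and 17.0 CPM in KO, with KO line 33 highest and KO line 72 lowest of the 6. Their log2 fold changes were 0.20 (SE 0.44) and 0.11 (SE 0.68).

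Several members differed more between lines of a genotype than between the genotypes. Col2a1, the type II chain of cartilage, stood at 61.5, 102 and 0.627 CPM in WT lines 36, 47 and 78 and at 13.5, 6.08 and 0.570 CPM in KO lines 33, 41 and 72, a range of 179-fold. The log2 fold change of -3.02 had an SE of 1.65 (unadjusted p = 0.114), and the difference changed sign between lane 6 (-3.86) and lane 7 (3.28). Against WT line 78 alone it was 3.42. Col10a1, made by hypertrophic chondrocytes, stood at 36.1, 24.4 and 11.8 CPM in WT and at 2.63, 3.08 and 39.5 CPM in KO. Here KO line 72 was the highest of all lines and the other KO lines were the lowest. Its log2 fold change was -0.68 with an SE of 1.09, and -3.06 without KO line 72 (unadjusted p = 0.000942 by edgeR). Col24a1, a fibrillar chain known from bone, stood at 22.9, 33.6 and 27.4 CPM in WT and at 13.7, 30.2 and 1.96 CPM in KO, a range of 17.2-fold set by KO line 72.

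Cartilage markers also varied by line. The 8 listed genes summed to 36.04, 49.8 and 17.8 CPM in WT lines 36, 47 and 78 and to 53.4, 43.5 and 25.2 CPM in KO lines 33, 41 and 72, with Cnmd and Snorc at or near 0 in every line. Acan, the cartilage proteoglycan aggrecan, was at 6.31, 23.7 and 1.96 CPM in WT and at 25.8, 9.90 and 0.259 CPM in KO. WT line 78 and KO line 72 were thus lowest for both Acan and Col2a1. Comp and Hapln1 were highest in KO line 72, at 8.30 and 3.54 CPM, the line that also had the highest Col10a1. The bone list summed to 98.5 CPM in that line against 49.6 to 56.9 CPM in the others, with Ibsp at or near 0 in all. Of the tested genes, all 5 bone genes and 5 of 6 cartilage genes were higher in KO. Their median log2 fold changes were 0.62 and 0.73, and Matn1 was the lower one (-1.19). Over all tested genes, 48.5% were lower. Only Matn3 (1.28, adjusted p = 0.305) had an unadjusted p under 0.05 by edgeR, as did 5.88% of all tested genes in that direction. It lay at 0.133 to 0.544 CPM. The part of cartilage and bone cells in the collagen values was not tested.

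**Figure D4:**
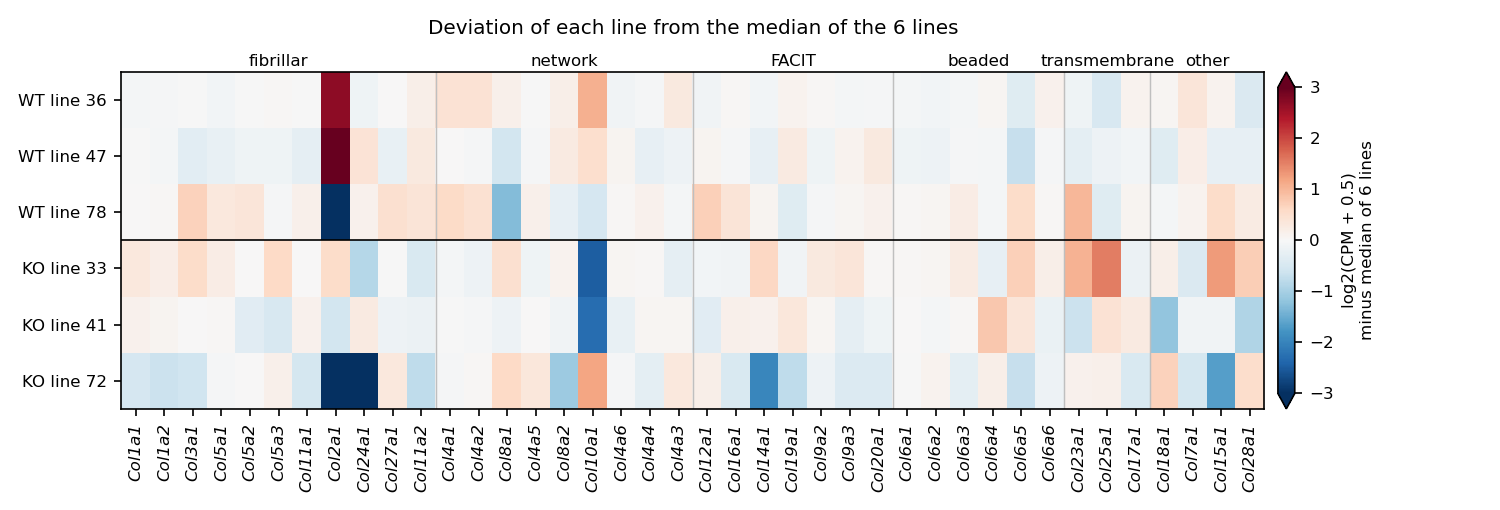
Deviation of each line from the median of the 6 lines for the 40 tested collagen chain genes, as log2(CPM + 0.5), red for higher and blue for lower, with the colour scale ending at 3 in either direction. The largest deviations fall in Col2a1, Col10a1, Col24a1, Col14a1 and Col15a1, and KO line 72 shows the most blue cells.

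KO line 72 was the lowest of the 6 lines for 20 of the 40 tested members and the highest for 6. KO line 33 was the highest for 13 and WT line 78 for 12, while WT line 36 was highest and lowest for 1 member each. Deviations of more than 2-fold from the median of the other lines occurred in 17.5% of tested members in KO line 72, against 7.41% of all tested genes in that line. In the other lines 5% to 15% of the members deviated that far, against 1.124% to 2.58% of all genes. Collagen levels therefore varied more between the lines than those of the typical gene did, as a description of these 6 lines.

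Chains that assemble into the same trimer were compared as ratios of CPM per kb within a line. The ratio of Col1a1 to Col1a2, whose products join 2 to 1 in type I collagen, was 1.84, 1.936 and 1.87 in WT lines 36, 47 and 78 and 2.05, 1.942 and 2.09 in KO lines 33, 41 and 72. The KO lines were above the WT lines by a narrow margin, with a two-sided exact permutation p of 0.1, the smallest that 3 against 3 lines allow, and 0.6 after adjustment over 12 ratios. While Col1a1 itself ranged 1.75-fold over the lines, the ratio ranged 1.13-fold. The ratio of Col4a1 to Col4a2 lay between 0.980 and 1.13, a range of 1.15-fold. Col4a1 itself ranged 1.545-fold and Col4a2 1.51-fold, so this pair also varied together from line to line. The ratio of Col6a1 to Col6a2 lay between 1.21 and 1.36. Its range of 1.125-fold was as wide as that of Col6a1 itself, so it does not show whether the 2 varied together. Col6a3 to Col6a1 ran from 0.532 to 0.763, a wider range of 1.44-fold.

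Other pairs were less fixed. Col5a1 to Col5a2 ranged from 1.33 to 1.39 in WT lines and from 1.37 to 1.83 in KO lines (exact permutation p = 0.2). Col8a1 to Col8a2 ranged from 3.09 to 6.22 in WT lines and was 8.23, 6.10 and 20.6 in KO lines 33, 41 and 72 (exact permutation p = 0.2), the last being a line with low Col8a2. Col11a1 to Col11a2 was 155, 115 and 138 in WT lines and 345, 253 and 388 in KO lines, with no overlap and an exact permutation p of 0.1, which restates the difference of Col11a2 seen above. The absolute size of a ratio depends on the transcript length used. With the union of all annotated exons, an alternative chosen after seeing the data, the mean of Col1a1 to Col1a2 was 4.10 in place of 1.95, while the comparison of genotypes is not affected by length.

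**Figure D5:**
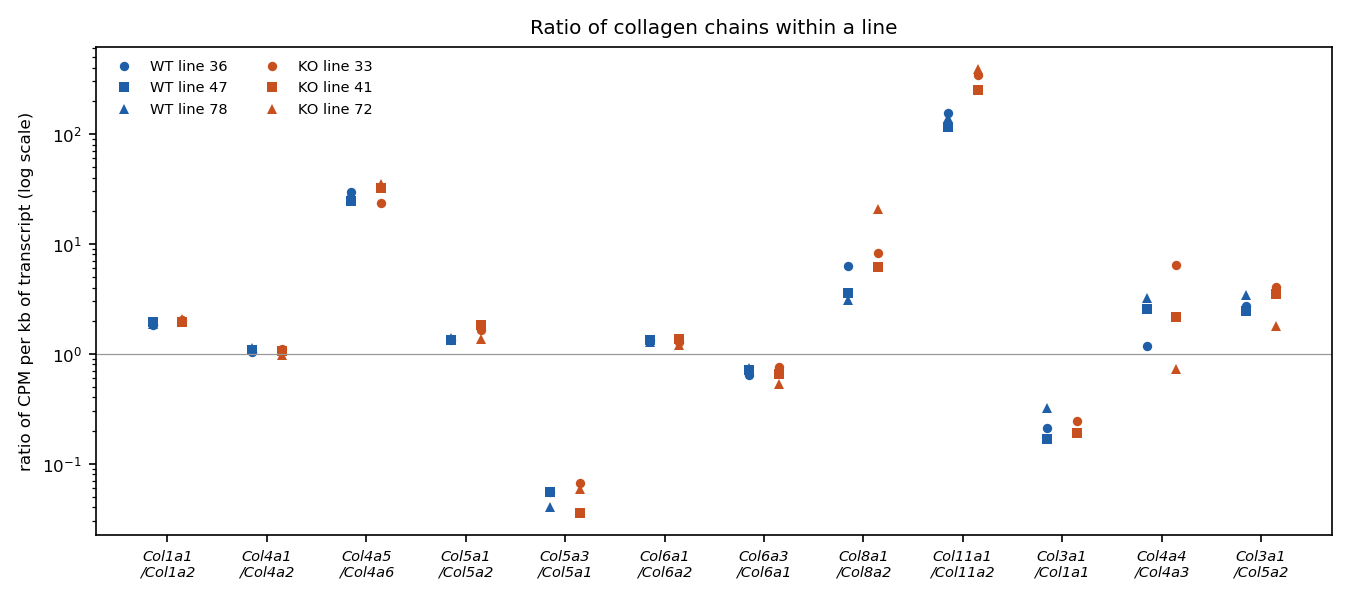
Ratio of collagen chains within each line, as CPM per kb of the first gene over CPM per kb of the second on a log scale, 1 point per line. Col1a1 to Col1a2 lies between 1.84 and 2.09 in all 6 lines, whereas Col8a1 to Col8a2 spreads from 3.09 to 20.6.

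Some members outside type IV are also neighbours on a chromosome. Col3a1 and Col5a2 lie tail to tail on chromosome 1, 24.6 kb apart, and their ratio per kb ranged from 1.80 to 4.02. Col6a2 and Col6a1 lie in the same direction on chromosome 10, and Col6a6, Col6a5 and Col6a4 in a row on chromosome 9. The chromosome 9 genes had log2 fold changes of -0.39, 0.71 and 0.63 with SEs of 0.59, 1.61 and 0.50, and Col6a5 had no counts in WT line 47 and KO line 72.

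The members not yet named were given by their ranges. Among fibrillar chains, Col5a3 stood at 141 to 299 CPM with a log2 fold change of 0.19 (SE 0.26), and Col27a1 at 8.79 to 14.5 CPM with -0.06 (SE 0.22). Of the FACIT chains, Col19a1, Col9a2, Col9a3 and Col20a1 stayed below 1.84 CPM in every line, with log2 fold changes from -0.75 to 0.21 and no unadjusted p under 0.142. Col8a2 stood at 18.01 to 46.6 CPM (-0.36, SE 0.32) and Col28a1 at 1.38 to 5.34 CPM (0.44, SE 0.51). Some members share exon bases with a gene on the opposite strand: Col4a3 563 bases with C430014B12Rik, Col9a3 234 bases with Tcfl5, Col6a4 162 bases with Gm47575 and 127 with Gm36993, and Col10a1 18 bases with Nt5dc1. Strand use being unknown, reads from these bases could have been assigned to either gene, which matters most for the low counts of Col4a3, Col9a3 and Col6a4.

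The 4 members without enough counts for a test were Col9a1, Col22a1, Col13a1 and Col26a1. Col9a1 had 22, 22 and 4 counts in WT lines and 10, 0 and 2 in KO lines, and Col26a1 had 23, 20 and 8 against 8, 0 and 4. Col22a1 had at most 10 counts in a line and Col13a1 at most 11. These counts are too few for a statement on the genotypes, a count of 0 allowing for up to 3 counts.

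The enzymes, chaperones and receptors that handle collagen were read from a separate list of 46 genes, of which 45 had counts and 43 were tested. Of these, 19 were lower and 24 higher in KO, with a median log2 fold change of 0.05. Over all tested genes, 48.5% were lower. None passed an adjusted p of 0.05 by edgeR or voom, where 0.528% and 1.81% of all tested genes did. By DESeq2 1 of the 43 did (Ddr1), where 5.9% of all tested genes did. At an unadjusted p under 0.05 by edgeR, 3 were lower, 6.98% against 8.77% of all tested genes, and 6 were higher, 14.0% against 5.88%. With at least a 1.5-fold change as well, 0 were lower, against 4.62% of all genes, and 3 were higher, 6.98% against 1.5%. The higher count was 0 with voom and with lane in the model. Among receptors, Ddr1, a tyrosine kinase activated by collagen, stood at 106, 90.03 and 84.8 CPM in WT and at 119, 120.2 and 131 CPM in KO. Its groups did not overlap, with a log2 fold change of 0.40, an SE of 0.10 and an adjusted p of 0.168 by edgeR, against 0.0121 by DESeq2. Itga2, the alpha subunit of a collagen-binding integrin, gave 0.80 (SE 0.33) at 0.451 to 1.15 CPM. Mrc2, an endocytic receptor that takes up collagen fragments, gave -0.24 (SE 0.09).

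In the folding and export group, Fkbp10, a prolyl isomerase of procollagen, gave 0.24 (SE 0.09). Creb3l1, a membrane-bound transcription factor of the secretory pathway that acts on type I collagen genes, gave 0.26 (SE 0.09). Mia2, which takes part in export from the endoplasmic reticulum, gave -0.23 (SE 0.09). From the prolyl hydroxylation group, the prolyl 3-hydroxylase gene P3h3 gave -0.24 (SE 0.09). Propeptide removal held the larger values. Adamts3, a procollagen N-proteinase, stood at 1.09, 1.24 and 1.05 CPM in WT and at 1.39, 4.88 and 2.05 CPM in KO lines 33, 41 and 72 (1.30, SE 0.48), and without KO line 41, which was the highest, the log2 fold change was 0.61 (unadjusted p = 0.0762 by edgeR). Pcolce2, an enhancer of procollagen C-proteinase, stood at 6.20, 7.12 and 6.10 CPM in WT and at 9.65, 8.33 and 43.0 CPM in KO lines 33, 41 and 72, so KO line 72 set its size (1.65, SE 0.65).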

How the data were processed

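RNA was sequenced from 3 HAT1 WT and 3 HAT1 KO lines of primary mouse embryonic fibroblasts (TruSeq RNA v2 libraries), and groups were taken from the genotype in the labels, each line being 1 replicate. The authors deposited raw read counts per gene, without normalization, for 17512 genes. The submitters' processing notes name mm10 and edgeR, without a role. The aligner, the counter, its annotation and its use of strand were not given in the sources used here. The deposited table also holds the authors' own fold changes and p-values, which were not used. Among counts from 1 to 10, 75.1% were even, while from 101 to 1000 the share was 55.0%, which would arise if read pairs added 2 counts.

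The test was that of edgeR 4.0.16 under R 4.3.3 (filterByExpr, TMM, quasi-likelihood fit with genotype alone, two-sided, Benjamini-Hochberg adjustment over all 14773 tested genes). Each edgeR p-value sets the genotype difference against the spread between these lines, with that spread estimated partly from all tested genes. Approximate SEs were obtained from the log2 fold change and its F value. Values are TMM-scaled CPM with SD over 3 lines, and CPM per kb uses the longest principal transcript of GENCODE M21 (GRCm38), matched by Ensembl identifier. With 3 lines against 3, a permutation test cannot go below p = 0.1. The common dispersion was 0.0747, so variation between lines rather than depth (67720628 to 98786746 counts) limits the precision of all but the lowest genes. Intervals for counting error were not needed beyond the allowance of 3 counts for a count of 0.

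The collagen genes, their classes, the biosynthesis list and the markers were chosen with earlier results of these data known. Full values were given for collagens with an unadjusted p under 0.05 and for the 3 highest per kb in each class, and biosynthesis genes with an unadjusted p under 0.05 were named. Other members that varied strongly between lines were named after their values were seen. Promoter windows came from RefSeq on GRCm38.p6. Alternatives were DESeq2 1.42.0 and its size factors, library size alone, no filter, a mean of at least 50 counts, voom of limma 3.58.1 with sample quality weights, lane as a term, and each line left out.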

Additional observations from a re-analysis of the deposited data

How the results depend on the processing

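The median log2 fold change of the collagens lay between -0.18 (without KO line 33) and 0.05 (without KO line 72) under all alternatives. The count of collagens lower at 1.5-fold and an unadjusted p under 0.05, which was 2, was 1 with DESeq2 size factors, with no filter, with the DESeq2 test and with lane in the model, where Col7a1 (log2 fold change -0.58, -0.57, -0.58 and -0.50) fell short of 1.5-fold. With voom the count stayed at 2 with Col10a1 in place of Col7a1. It was 1 to 4 when a line was left out, with 1 without WT line 36 and 4 without WT line 78, which added Col2a1 and Col26a1. The count of higher collagens, which was 1, was 2 with the DESeq2 test (Col8a1 and Col25a1) and 1 to 2 when a line was left out, with 2 without KO line 41 (Col25a1 and Col28a1). At an adjusted p under 0.05 the DESeq2 test called 1 lower and 1 higher collagen, and the other alternatives called 0. The biosynthesis genes past both thresholds, which were 3 higher, were 0 with voom, 0 with lane in the model, and 0 to 3 when a line was left out, with 0 without WT line 36, 47 or 78 and 1 without KO line 72. The cause was not tested.

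Col7a1 and Col11a2 kept an unadjusted p under 0.05 in all 14 fits, with log2 fold changes of -0.72 to -0.50 and -1.61 to -0.99 and adjusted p of 0.00284 to 0.709 and 0.0668 to 0.764. Col25a1 lay between 1.05 and 2.12 (adjusted p 0.0351 to 0.784) and missed 0.05 with lane in the model (unadjusted p = 0.0918) and without WT line 36 (unadjusted p = 0.0505). Col4a1 lay between -0.53 and -0.26 (adjusted p 0.140 to 0.831) and also missed it with voom and with lane in the model. Collagens that reached an unadjusted p under 0.05 only in alternatives were Col8a1 (DESeq2 test 0.80, lane 1.11, without WT line 36 1.22), Col4a2 (DESeq2 test -0.33, without WT line 47 -0.47) and Col10a1 (voom -2.67, without KO line 72 -3.06). Leaving out a line added Col2a1 (-3.59) and Col26a1 (-2.44) without WT line 78, Col9a1 (-3.72) and Col9a3 (-1.43) without KO line 33, Col14a1 (0.48) without KO line 72, and Col5a3 (0.44), Col18a1 (0.57) and Col28a1 (0.84) without KO line 41. No named gene that had passed the threshold changed sign. Lanes and genotypes overlap in lanes 6 and 7 only, so the model with lane gives WT line 36 no weight in the genotype difference. No paired analysis was possible because the line numbers of the genotypes are all different. Genes under about 1 CPM rest on few counts, and differences in them are the least precise.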
